A study of Homo sapiens with 15 samples.

Results

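The genes described here encode proteins that drive cells into and out of mitosis: CDK1, its cyclin partners CCNA2, CCNB1 and CCNB2, the kinases AURKA, AURKB, PLK1 and PLK4, and CDC20 and UBE2C, which act with the anaphase-promoting complex. They were taken by symbol from the expression table of LNCaP cells, and all 10 had a row among its 17272 genes and passed the filter on low values. LNCaP is a human prostate cancer line that responds to androgen. Its cells were kept without androgen for 2 days in charcoal-stripped serum and then treated for 22 h, either with 1 nM of the synthetic androgen R1881 and the solvent DMSO (10 libraries) or with the same dose of R1881 and 2 µM enzalutamide, a drug that blocks androgen signalling (5 libraries). All cells thus received R1881, and no library without androgen entered the comparison. In the labels the libraries with DMSO carry the numbers 51 to 55 and 71 to 75, and those with enzalutamide the numbers 81 to 85. The sources used here do not say what the numbers stand for. Each run of numbers holds a single treatment, so the run of 81 to 85 and enzalutamide treatment cannot be told apart. The labels do not say that the libraries came from separate cultures (the study's methods call them biological replicates), so the p-values measure the spread between these libraries, which may in part be technical.

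CDK1 is the kinase that phosphorylates the many proteins reorganized in mitosis, and it is active only when bound to an A-type or B-type cyclin. Aurora and Polo-like kinases work beside it at centrosomes, kinetochores and the spindle midzone. The anaphase-promoting complex or cyclosome (APC/C) is a ubiquitin ligase that, once bound by its activator CDC20, marks cyclins and securin for destruction and so ends mitosis, and UBE2C is the ubiquitin-conjugating enzyme that starts the chains on its substrates. Most of these genes are repressed in resting cells by the DREAM complex and activated towards G2 phase by MuvB with B-MYB and FOXM1, at promoters that often hold a cell cycle genes homology region (CHR) together with CCAAT boxes bound by NF-Y.

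Upstream sequences are shown first, since genes of this kind are known to share promoter elements. The promoter table (RefSeq, GRCh38.p14) held an entry for 8 of the 10 members, and AURKA and UBE2C had none. Where a gene had several entries, the start nearest to that of its canonical GENCODE transcript was used. The distance was 0 bases except for AURKB, whose entry starts 326 bases downstream. The AURKB bases searched thus lie inside the gene as annotated, downstream of its canonical start. In the 250 bases upstream of the start, either strand was searched for TTTGAA or TTTAAA, the usual letters of a CHR, for CCAAT, and for AGAACA and TGTTCT separated by 3 bases, an androgen response element. Only these exact letters were searched, so a promoter without a match may hold a variant form. The last 150 bases before the start are printed 5′ to 3′ in the direction of transcription. They are given for the 5 members with both kinds of motif and for CCNA2, where CCAAT was the one motif matched. Motif matches are in capitals (ATTGG is CCAAT on the other strand).
CDK1: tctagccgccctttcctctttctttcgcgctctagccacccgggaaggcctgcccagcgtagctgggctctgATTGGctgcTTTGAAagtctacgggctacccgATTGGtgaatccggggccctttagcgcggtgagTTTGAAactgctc
CCNB1: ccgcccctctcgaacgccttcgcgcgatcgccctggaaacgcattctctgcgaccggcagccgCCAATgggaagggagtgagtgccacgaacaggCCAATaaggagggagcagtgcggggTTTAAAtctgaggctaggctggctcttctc
CCNB2: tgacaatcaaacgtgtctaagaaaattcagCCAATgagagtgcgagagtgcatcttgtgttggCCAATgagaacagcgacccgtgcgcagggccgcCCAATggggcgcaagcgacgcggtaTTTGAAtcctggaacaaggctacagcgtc
PLK1: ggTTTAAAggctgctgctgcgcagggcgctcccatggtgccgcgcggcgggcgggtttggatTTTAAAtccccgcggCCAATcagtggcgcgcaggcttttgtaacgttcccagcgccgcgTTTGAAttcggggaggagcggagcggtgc
CDC20: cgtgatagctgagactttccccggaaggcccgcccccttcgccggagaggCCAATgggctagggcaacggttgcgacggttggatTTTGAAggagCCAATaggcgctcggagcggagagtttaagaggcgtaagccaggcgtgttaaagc
CCNA2: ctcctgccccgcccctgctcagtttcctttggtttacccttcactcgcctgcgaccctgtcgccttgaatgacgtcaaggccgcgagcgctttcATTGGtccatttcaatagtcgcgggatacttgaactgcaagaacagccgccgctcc
These windows lie at chr10:60778328-60778477 on the plus strand for CDK1, chr5:69167000-69167149 on the plus strand for CCNB1, chr15:59104996-59105145 on the plus strand for CCNB2, chr16:23678739-23678888 on the plus strand for PLK1, chr1:43358831-43358980 on the plus strand for CDC20 and chr4:121823884-121824033 on the minus strand for CCNA2.

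TTTGAA was present upstream of 4 of the 8 members (CDK1, CCNB2, PLK1 and CDC20), against 13.3% of all 35116 promoters in the table. TTTAAA was found in 3 of 8 (CCNB1, CCNB2 and PLK1), against 11.3%. CCAAT was found in 7 of 8, against 32.0% of all promoters, and PLK4 was the member without it. The match of AURKB lies downstream of its canonical start, and the bases before that start were not searched. Both a CHR-type motif and CCAAT were present in 5 of 8, against 7.64% of all promoters. CCNB2 had the most CCAAT boxes, with first bases at -244, -120, -87 and -54 from the transcript start, and the TTTGAA nearest to its start had its first base at -29, as had that of PLK1. The exact androgen response element searched was found upstream of 0 of the 8 members, against 0.003% of all promoters. A form this rare would be missing from almost any 8 promoters, so its absence says nothing particular about the members. Variant forms and sites further away were not searched. No match of one motif overlapped a match of another in these promoters. The letters alone do not show that a factor was bound.

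**Figure D1:**
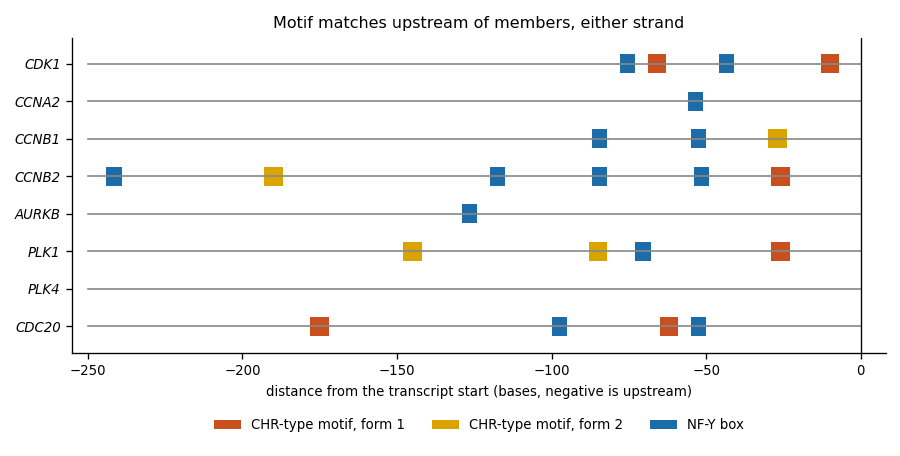
Motif matches in the 250 bases upstream of 8 members, by distance from the transcript start in bases, with CHR-type motifs in orange (form 1, TTTGAA) and yellow (form 2, TTTAAA) and CCAAT boxes (NF-Y box) in blue. The 5 promoters with both kinds of motif have a CHR-type motif within 65 bases of the start, and PLK4 has no match. For AURKB the start is that of its entry, 326 bases downstream of the canonical start.

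All 10 genes were lower after enzalutamide treatment. Each was lower with R1881 + enzalutamide than with R1881 + DMSO at an adjusted p under 0.05 (limma on log2(CPM + 0.5), Benjamini-Hochberg adjustment over 17046 genes), where 32.7% of all genes tested were lower and 29.8% were higher. CPM are reads per gene scaled to the library size, as deposited. With library totals set to 1000000 in place of the authors' scaling, 4288 genes were lower and 6641 higher, where the deposited values gave 5577 and 5083, and all 10 members were still lower. In all 10 the groups did not overlap, the highest enzalutamide library lying below the lowest DMSO library, as in 20.1% of all genes. The log2 fold changes ranged from -1.09 for AURKB to -0.58 for CCNB1, with a median of -0.91 against -0.01 over all genes, and 9.57% of all genes were at or below the value of CCNB1. A decrease of at least 2-fold by log2 fold change was found for CCNA2 and AURKB, that is 2 of 10, beside 4.19% of all genes. UBE2C lay near this limit (-0.99), and CCNA2 no longer reached it with library totals set to 1000000 (-0.92). For each member the two-sided exact permutation test gave p = 0.000666, the smallest that 10 against 5 libraries allow with the one-sided p doubled. In bulk RNA, fewer cells in the phases that express these genes and less of their RNA per cell cannot be told apart.

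CDK1 was the most abundant member (chr10:60778331-60794852, plus strand, 8 exons, GRCh38 with GENCODE v44, as for all genes). Its lowest, median and highest R1881 + DMSO libraries held 235, 269.6 and 314 CPM, and the R1881 + enzalutamide libraries 81 to 85 held 155, 149.7, 126, 144 and 155 CPM. The groups were 79.7 CPM apart at their nearest libraries, and the median was 44.5% lower with enzalutamide (log2 fold change -0.89, SE 0.069, adjusted p = 4.50e-10). CCNA2 encodes cyclin A2, which serves CDK2 in S phase and CDK1 in early mitosis (chr4:121816444-121823883, minus strand, 8 exons). It ranged over 30.4, 35.9 and 45.1 CPM (lowest, median, highest) with R1881 + DMSO and was 18.9, 19.6, 17.3, 17.1 and 17.97 CPM with R1881 + enzalutamide, so the highest enzalutamide library held less than the lowest control. This was the largest change among CDK1 and the cyclins (log2 fold change -1.02, SE 0.079, adjusted p = 4.51e-10). The gene overlaps EXOSC9 on the opposite strand, which fell too (log2 fold change -0.39, from 32.1 ± 2.25 to 24.4 ± 2.45 CPM), and the sources used here do not say whether reads were counted by strand.

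The B-type cyclins fell least of the 10. CCNB1 encodes cyclin B1, the main mitotic partner of CDK1 (chr5:69167135-69178245, plus strand, 9 exons). It was at 109.8, 130.0 and 138 CPM (lowest, median, highest) with R1881 + DMSO and at 88.8, 87.00, 78.7, 80.8 and 86.1 CPM with R1881 + enzalutamide. The enzalutamide values stayed below all control values, with 33.8% off the median (log2 fold change -0.58, SE 0.056, adjusted p = 1.05e-08). CCNB2 encodes cyclin B2, found mostly at the Golgi apparatus (chr15:59105126-59125045, plus strand, 9 exons). Its R1881 + DMSO libraries spanned 34.4 to 48.2 CPM with a median of 40.3 CPM, and the R1881 + enzalutamide libraries held 26.7, 26.1, 22.7, 27.8 and 24.97 CPM. The gap between the groups was 6.57 CPM and the median fell by 35.2% (log2 fold change -0.67, SE 0.078, adjusted p = 2.30e-07). CCNB2 overlaps noncoding genes on both strands and has a processed pseudogene, CCNB2P1, none of them with a row in the table.

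Both Aurora kinases decreased, and AURKB had the lowest log2 fold change of the members against all 10 controls, though not against libraries 51 to 55 alone (-1.12, where CCNA2 was at -1.17). AURKA, which matures centrosomes and builds the spindle poles (chr20:56369389-56392337, minus strand, 9 exons), was at 29.04, 33.2 and 36.5 CPM (lowest, median, highest) with R1881 + DMSO and at 18.2, 17.3, 13.95, 16.2 and 17.7 CPM with R1881 + enzalutamide. Its median was 47.9% lower (log2 fold change -0.94, SE 0.064, adjusted p = 4.87e-11). AURKB is the kinase of the chromosomal passenger complex, which corrects faulty attachments of chromosomes and takes part in cytokinesis (chr17:8204733-8210600, minus strand, 9 exons). It had the fewest reads of the 10, with 109 in its poorest library. Its R1881 + DMSO libraries held 10.6, 11.8 and 13.9 CPM (lowest, median, highest), its R1881 + enzalutamide libraries 6.23, 5.07, 5.35, 4.82 and 5.30 CPM. Each enzalutamide library thus held at most 6.23 CPM where no control held less than 10.6 CPM, and the median was 55.1% lower (log2 fold change -1.09, SE 0.076, adjusted p = 6.22e-11). Processed pseudogenes of both kinases are annotated, without rows in the table, so reads shared with them could not be followed.

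Both Polo-like kinases fell. PLK1, needed for mitotic entry, spindle assembly and cytokinesis (chr16:23677656-23690367, plus strand, 10 exons), was at 28.6, 34.4 and 38.04 CPM (lowest, median, highest) with R1881 + DMSO and at 20.1, 16.8, 16.9, 16.5 and 17.6 CPM with R1881 + enzalutamide. Library 81 was higher than the other enzalutamide libraries but below every control, and the median was 50.9% lower (log2 fold change -0.92, SE 0.070, adjusted p = 2.97e-10). PLK4 is the kinase that starts the duplication of centrioles (chr4:127880893-127899224, plus strand, 16 exons). Its lowest, median and highest R1881 + DMSO libraries held 14.6, 15.8 and 19.2 CPM, and the R1881 + enzalutamide libraries held 8.55, 9.26, 9.35, 7.10 and 10.3 CPM. The median was 41.3% lower (log2 fold change -0.85, SE 0.080, adjusted p = 8.14e-09), and the groups were 4.30 CPM apart. PLK1 overlaps ERN2 and a noncoding gene on the opposite strand, and PLK4 a small nuclear RNA gene on its own, none of which had a row.

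The APC/C activator CDC20 and the ubiquitin-conjugating enzyme UBE2C also fell. CDC20 (chr1:43358981-43363203, plus strand, 11 exons) was at 46.2, 53.3 and 58.5 CPM (lowest, median, highest) with R1881 + DMSO and at 29.2, 30.4, 26.6, 27.7 and 29.7 CPM with R1881 + enzalutamide, with the smallest standard error of the members (log2 fold change -0.86, SE 0.051, adjusted p = 4.72e-12). Its median decreased by 45.2%. UBE2C (chr20:45812576-45816957, plus strand, 6 exons) was at 26.7, 28.2 and 34.97 CPM with R1881 + DMSO and at 16.1, 15.9, 13.2, 13.3 and 13.8 CPM with R1881 + enzalutamide, with 51.1% off its median (log2 fold change -0.99, SE 0.066, adjusted p = 3.07e-11). Neither gene had an enzalutamide library within the range of the controls. Of their processed pseudogenes, CDC20P1 (from 4.82 ± 0.669 to 2.64 ± 0.386 CPM) and UBE2CP3 (from 1.66 ± 0.285 to 0.925 ± 0.132 CPM) had rows and fell too, and the sources used here do not say how reads were divided between them and their parent genes.

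**Figure D2:**
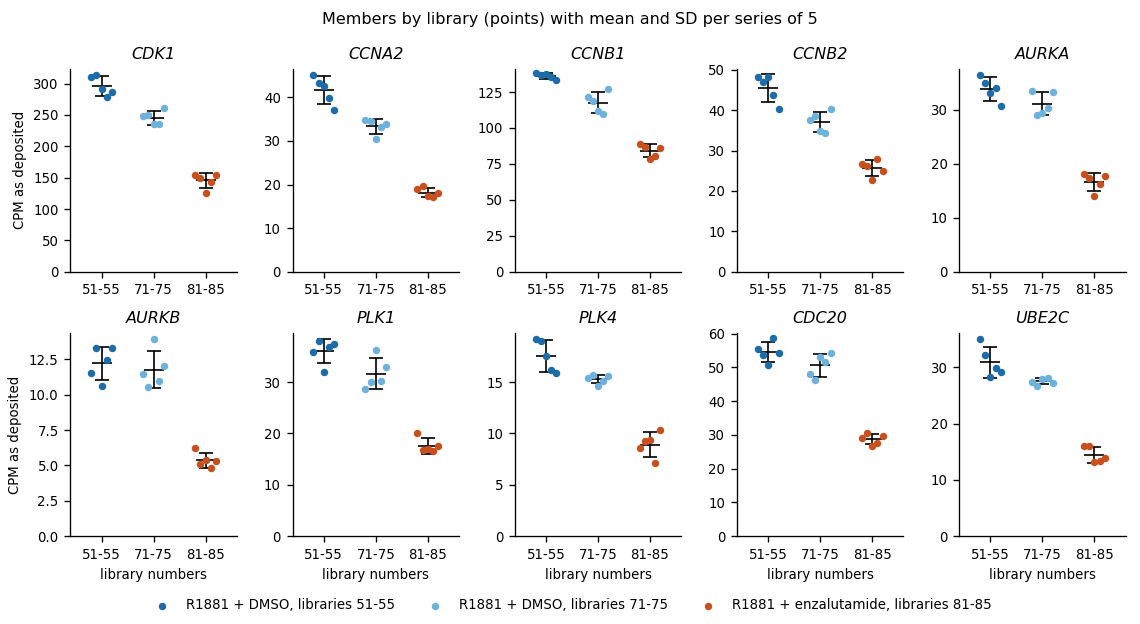
CPM of the 10 members in each library (points), by library numbers, with the mean and SD of each series of 5. The enzalutamide libraries 81 to 85 lie below all controls in each panel, and the control series 51 to 55 has the higher mean in each panel.

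Levels of different genes were compared per length, as CPM per kilobase of the canonical transcript. With R1881 + DMSO the order of the mean levels was CDK1 (144), CCNB1 (62.6), UBE2C (37.6), CDC20 (31.9), CCNB2 (27.8), AURKA (15.98), PLK1 (15.7), CCNA2 (13.6), AURKB (9.66) and PLK4 (4.28 CPM per kilobase). CDK1 and CCNB1 stood apart from their neighbours, since the lowest CDK1 library (124) lay above the highest CCNB1 library (67.99) and the lowest CCNB1 library (54.1) above the highest UBE2C library (45.01 CPM per kilobase). UBE2C and CDC20, CDC20 and CCNB2, AURKA and PLK1, PLK1 and CCNA2, and CCNA2 and AURKB overlapped in range. With R1881 + enzalutamide the order was the same, from CDK1 at 77.1 ± 6.42 to PLK4 at 2.32 ± 0.312 CPM per kilobase (SD, n = 5). UBE2C (18.6), CDC20 (17.4) and CCNB2 (17.3 CPM per kilobase) overlapped again, as did AURKA (8.21) and PLK1 (8.14), while the highest CCNA2 library (7.15) lay below the lowest PLK1 library (7.64 CPM per kilobase).

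The control libraries were compared with each other, since they carry the same labelled treatment in separate series of numbers. All 10 members had higher means in libraries 51 to 55 than in libraries 71 to 75, and CDK1 and the cyclins passed the test. Of the 10, 4 were higher at an adjusted p under 0.05 from limma (10 libraries), against 2.35% of all genes, while 0.821% of all genes were lower. CDK1 was at 297 ± 15.6 CPM in libraries 51 to 55 and 246 ± 10.9 CPM in libraries 71 to 75 (SD, n = 5 each), a log2 difference of 0.27 (adjusted p = 0.00754 from limma). CCNA2 was at 41.6 ± 3.16 CPM in libraries 51 to 55 and 33.4 ± 1.75 CPM in libraries 71 to 75 (log2 difference 0.31, adjusted p = 0.0152 from limma). The differences of CCNB2 (0.29, adjusted p = 0.0246 from limma) and CCNB1 (0.21, adjusted p = 0.0189 from limma) also passed. The others, given with limma's adjusted p, did not pass: PLK4 0.19 (p = 0.111), PLK1 0.19 (p = 0.118), UBE2C 0.16 (p = 0.127), AURKA 0.12 (p = 0.220), CDC20 0.11 (p = 0.234) and AURKB 0.05 (p = 0.725).

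For 5 members (CDK1, CCNA2, CCNB1, PLK4 and UBE2C) every library of 51 to 55 lay above every library of 71 to 75, as in 4.76% of all genes. The median log2 difference of the 10 was 0.19, against 0.01 over all genes. CDK1 was called with any single library left out (limma's adjusted p 0.00512 to 0.0406). The calls of the cyclins were lost with some libraries left out, while their differences moved little. Without library 51, 52 or 53, CDK1 was the one member still called, with log2 differences of 0.28 to 0.30 for CCNA2, 0.21 for CCNB1 and 0.27 to 0.28 for CCNB2. Without library 74 CDK1 and CCNA2 were called, and CCNB1 was at 0.19 and CCNB2 at 0.26. Without library 73 PLK1 was called beside the 4, so that 1 to 5 members were called with 1 library left out. The androgen-induced KLK2, a kallikrein protease, was lower in libraries 51 to 55 (log2 difference -0.40), as was TMPRSS2, a membrane serine protease (-0.16), while FKBP5, a chaperone of steroid receptors, differed by 0.11 without passing (adjusted p = 0.120 from limma). What part these shifts had in the members' differences was not tested. Libraries also differed in a trend on transcript GC content, which did not follow the series throughout. Across genes, the deviation of a library from its treatment mean had a Spearman's rho with GC content of -0.657, -0.716, -0.671, 0.282 and -0.04 in libraries 51 to 55 and of -0.288, -0.036, 0.793, 0.654 and -0.083 in libraries 71 to 75. The strongest negative values were thus in 3 libraries of the former series and the strongest positive ones in 2 of the latter, and the other 5 controls lay between them. Among the members called between the series, GC content was 35.4% for CDK1, 41.9% for CCNA2, 41.9% for CCNB1 and 45.2% for CCNB2. Among those not called it was 38.1% for PLK4, 44.4% for AURKA, 51.1% for UBE2C, 55.7% for AURKB, 56.9% for CDC20 and 57.1% for PLK1. PLK4 and AURKA thus lay in the range of the called members, and the others not called lay above it. The part of GC content in these calls was not tested. After removal of the GC trend from every library, an alternative chosen after seeing the data, 6 members were higher in libraries 51 to 55 (CDK1, the 3 cyclins, PLK1 and CDC20). Over all genes in that run 418 were higher. It held only genes with a known GC content, at most 14813. The log2 difference then was 0.16 for CDK1, 0.23 for CCNA2, 0.13 for CCNB1 and 0.23 for CCNB2, each smaller than before. It was also smaller for PLK4 (0.08) and AURKA (0.06) and larger for PLK1 (0.28), CDC20 (0.19) and AURKB (0.12), and UBE2C stayed at 0.16.

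Against either control series alone all 10 members were lower with enzalutamide. These comparisons share the enzalutamide libraries, and their values are given side by side. The log2 fold change against libraries 51 to 55 and against libraries 71 to 75 was -1.17 and -0.86 for CCNA2, -1.03 and -0.75 for CDK1, -0.81 and -0.52 for CCNB2, -0.69 and -0.48 for CCNB1, and -1.12 and -1.07 for AURKB. For each gene these values differ by its difference between the control series, so their gap is not a further result. It was largest for the cyclins and CDK1 and smallest for AURKB. The 5 other members lay between -1.07 and -0.76. The smallest decrease of a member against either series was that of CCNB1 against libraries 71 to 75 (-0.48), and its difference between the control series was 0.21. The part of the runs of numbers in the decreases was not tested, since each run holds a single treatment.

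**Figure D3:**
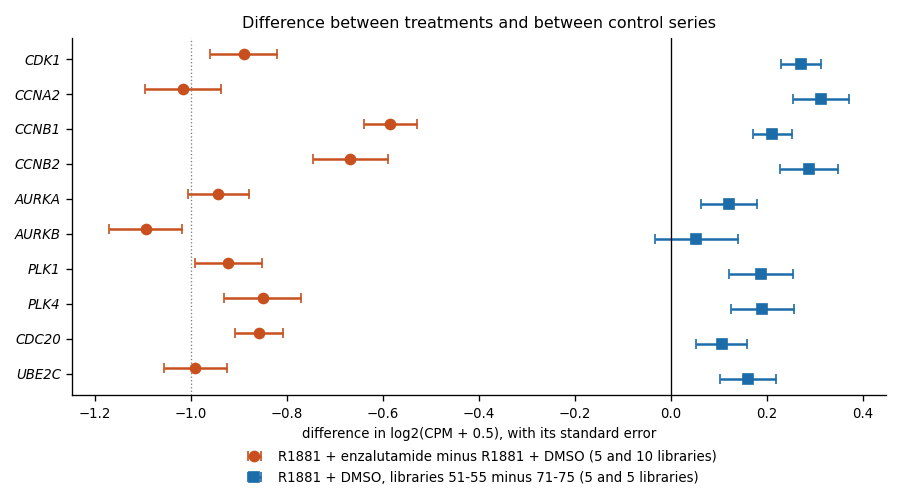
Difference in log2(CPM + 0.5) with its standard error for each member, between treatments (orange circles) and between the control series (blue squares), with a dotted line at a 2-fold decrease. Treatment differences run from -1.09 to -0.58 and series differences from 0.05 to 0.31.

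The genes that work with the members were counted in 8 lists of 98 genes with values, 4 of which stand in 2 lists. Of these 98 genes, limma called 67 lower and 13 higher after enzalutamide treatment, against 32.7% and 29.8% of all genes, and left 18 uncalled. Their median log2 fold change was -0.32. Values after gene names in the account of these lists are log2 fold changes. Among the partners and regulators of CDK1, 9 of 13 genes were lower and 3 higher, with a median of -0.53. The lowest were CDC25A, a phosphatase that activates cyclin-dependent kinases (-1.47, from 40.7 ± 2.35 to 14.4 ± 1.19 CPM), CDK2, the kinase of S phase (-1.16, from 97.4 ± 4.08 to 43.5 ± 3.21 CPM), and PKMYT1, which phosphorylates and inhibits CDK1 (-1.06). WEE1, the other inhibitory kinase of CDK1, rose from 43.5 ± 3.98 to 61.7 ± 3.53 CPM (0.50). CCNB3 (0.48) and CDK7, the kinase that activates CDK1 and CDK2 (0.21), rose as well.

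Of 13 other mitotic and centrosomal kinases 9 were lower and 3 higher, with a median of -0.66. MELK (-1.16), TTK, a kinase of the spindle assembly checkpoint (-1.08), and PBK (-0.88) were the lowest. Those that rose were NEK7 (0.34), PLK3 (0.27), at 1.35 ± 0.172 and 1.75 ± 0.473 CPM, and NEK9 (0.22). The partners of the Aurora and Polo kinases fell in 12 of 14 cases, 0 rose, and their median was -0.80. The kinesin KIF20A (-1.25), CDCA8, the borealin subunit of the chromosomal passenger complex (-1.04), and STIL, a substrate of PLK4 in centriole formation (-1.02), were the lowest. SASS6, of the centriole cartwheel, fell by less (-0.56), and CEP192 (-0.18) and BOD1 (-0.01) did not pass the test (adjusted p = 0.0636 and 0.771 from limma).

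The subunits of the APC/C showed no common direction, while its substrates fell. Of 14 subunits, 6 were lower, 2 higher and 6 not called, with a median of -0.13, and with library totals set to 1000000 this became 2 lower and 4 higher with a median of -0.04. CDC23 (-0.35) and ANAPC13 (-0.31) were the lowest, followed by ANAPC11 (-0.24), which did not pass. CDC26 (0.28) and ANAPC16 (0.09) were higher, and ANAPC4 was at 0.14 without passing. Of 10 coactivators, E2 enzymes and inhibitors 9 were lower and 0 higher (7 and 0 with totals set to 1000000), with a median of -0.29. FBXO5, the inhibitor EMI1 that restrains the APC/C before mitosis (-0.86), MAD2L1, of the spindle assembly checkpoint (-0.80), and TRIP13, which releases that checkpoint (-0.68), were the lowest. UBE2D1 (-0.21) and USP37 (-0.16, not called with totals set to 1000000) fell by less, and MAD1L1 (-0.14) did not pass. All 12 listed APC/C substrates fell, with a median of -0.88. ANLN, an actin-binding protein of cytokinesis (-1.29), KIF20A (-1.25) and the spindle kinesin KIF11 (-1.04) fell most, and NEK2 (-0.59), PTTG1, which encodes securin (-0.39), and GMNN, which encodes geminin (-0.36), least.

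Mitotic phosphatases and their inhibitors showed no common direction, with 5 lower, 3 higher and 5 not called of 13 and a median of -0.04. With library totals set to 1000000 the balance turned, with 3 lower, 6 higher and a median of 0.05. The catalytic subunits PPP1CB (-0.99) and PPP2CB (-0.88) and the phosphatase CDC14B (-0.85) fell, PPP2R2A, a regulatory subunit of PP2A, rose from 194 ± 9.56 to 307 ± 15.7 CPM (0.66), PPP6C rose (0.25), and CDC14A (0.14) did not pass. In the list of DREAM, MuvB, B-MYB and FOXM1 genes, 9 of 13 were lower and 2 higher, with a median of -0.27. MYBL2, which encodes B-MYB, fell from 46.6 ± 5.03 to 18.8 ± 2.167 CPM (-1.29), and FOXM1 fell from 84.5 ± 6.80 to 52.3 ± 3.18 CPM (-0.69). LIN52, of the MuvB core, was at -0.57. RBL2, which encodes p130, the pocket protein of DREAM in resting cells, rose from 185 ± 6.57 to 322 ± 16.5 CPM (0.80). TFDP2 rose by less (0.23), and LIN37 (-0.04) did not pass. Of the 98 related genes, 23 were also higher in control libraries 51 to 55 than in 71 to 75 and 0 were lower, against 2.35% and 0.821% of all genes. The Aurora and Polo partners (9 of 14), the APC/C substrates (9 of 12) and the other mitotic kinases (5 of 13) held most of them, with some genes on more than 1 list.

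**Figure D4:**
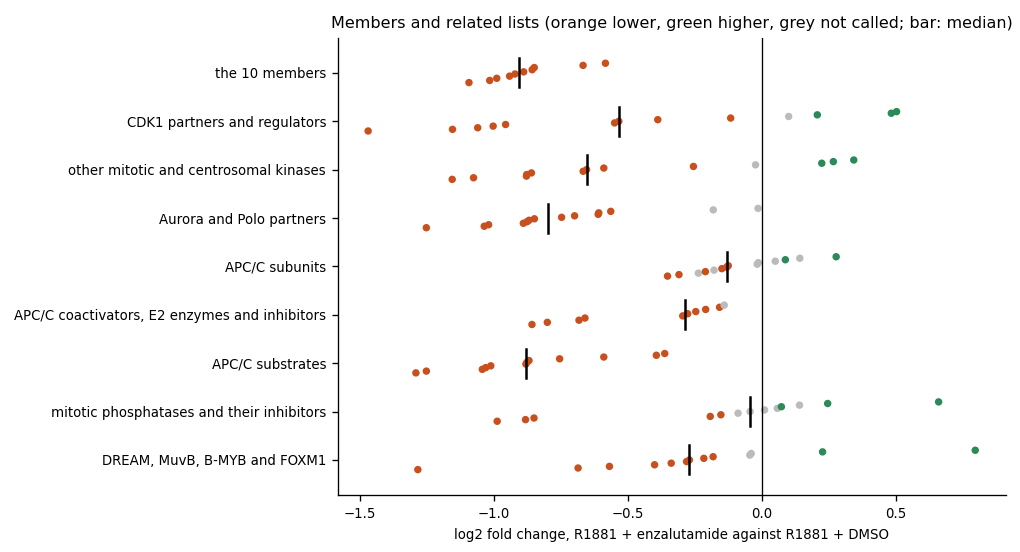
Log2 fold change (R1881 + enzalutamide against R1881 + DMSO) of each gene in the members and the 8 related lists, with orange for lower, green for higher, grey for not called and a bar at the median. The medians run from -0.91 for the members to -0.04 for the phosphatases.

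Whether partners and paralogues fell by equal amounts was tested on the log2 ratio of their values of CPM + 0.5 in each library, for 7 pairs (two-sided exact permutation test, Benjamini-Hochberg adjustment over the 7). Cyclin A2 fell more than cyclin B1. The log2 ratio of CCNA2 to CCNB1 was -1.75 ± 0.09 over the 10 R1881 + DMSO libraries (mean ± SD) and -2.18 ± 0.05 over the 5 R1881 + enzalutamide libraries, which differ by -0.43 (exact permutation p = 0.000666, adjusted p = 0.00466), with every enzalutamide library below every control. CDK1 fell less than CDK2. Their ratio went from 1.47 ± 0.11 to 1.73 ± 0.10, a difference of 0.27 (exact permutation p = 0.00200, adjusted p = 0.00699). Against libraries 51 to 55 alone the difference was 0.17 and did not pass (adjusted p = 0.0556, exact permutation test). Against libraries 71 to 75 alone it was 0.36 and passed (adjusted p = 0.0278, exact permutation test). This ratio also differed between the controls, at 1.49 to 1.63 in libraries 51 to 55 and 1.32 to 1.42 in libraries 71 to 75. The mitotic activator CDC20 fell more than FZR1, the APC/C activator of late mitosis and G1. The log2 ratio went from 1.17 ± 0.24 to 0.61 ± 0.29, a difference of -0.56 (exact permutation p = 0.00466, adjusted p = 0.0109), and against libraries 71 to 75 alone it was -0.46 and did not pass (adjusted p = 0.130, exact permutation test). FZR1 itself fell from 23.4 ± 4.66 to 18.9 ± 2.97 CPM (log2 fold change -0.30, adjusted p = 0.0289 from limma) and was not called with library totals set to 1000000.

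The other pairs did not pass, which does not show that their genes fell alike. The difference in log2 ratio with its standard error was -0.33 ± 0.18 for UBE2C over UBE2S, the E2 enzyme that extends ubiquitin chains (exact permutation p = 0.0646, adjusted p = 0.113). UBE2S fell from 49.1 ± 7.74 to 31.0 ± 5.64 CPM. For CCNB1 over CCNB2 the difference was 0.08 ± 0.05 (exact permutation p = 0.0939, adjusted p = 0.131). AURKA over AURKB differed by 0.15 ± 0.09 (exact permutation p = 0.120, adjusted p = 0.140), and PLK1 over PLK4 by -0.07 ± 0.11 (exact permutation p = 0.460, adjusted p = 0.460).

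**Figure D5:**
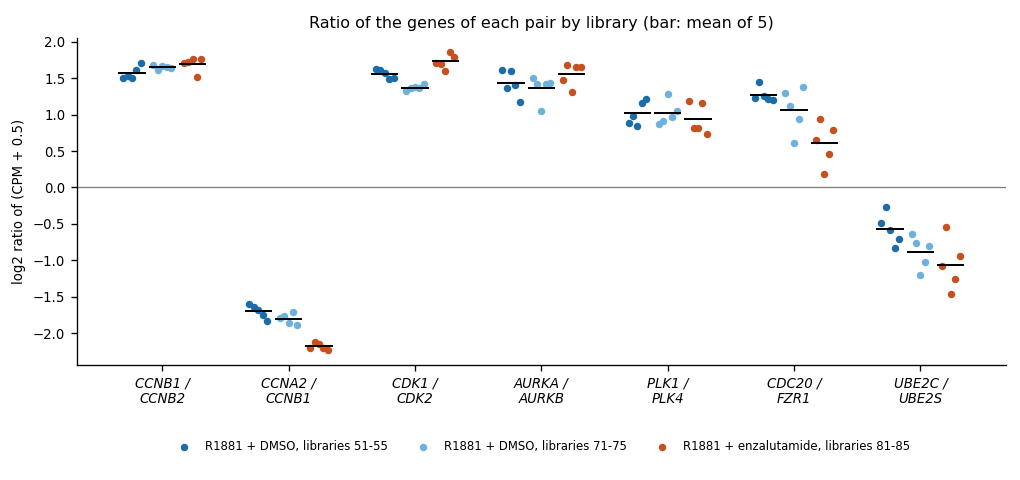
Log2 ratio of the 2 genes of each pair in each library, coloured by series, with a bar at the mean of 5 libraries. CCNA2 over CCNB1 is the pair whose enzalutamide libraries all lie below all controls, and the enzalutamide libraries of CDC20 over FZR1 range from 0.19 to 0.94.

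Within treatments the members varied together from library to library to different degrees. Each gene's deviations from its 2 treatment means over the 15 libraries were set beside the mean deviation of the members (for a member, of the other 9). Pearson's r was 0.92 for CDK1, 0.89 for CCNB1, 0.83 for CCNA2, 0.81 for UBE2C, 0.75 for AURKA, 0.74 for CCNB2, 0.65 for PLK1, 0.63 for CDC20, 0.58 for PLK4 and 0.25 for AURKB. Among 12154 other genes (mean CPM 5 or more) the 8 most alike were TOP2A, which encodes topoisomerase II alpha (0.94), ERCC6L (0.93), PBK (0.93), TYMS, which encodes thymidylate synthase (0.93), LBR, the lamin B receptor (0.92), RACGAP1 (0.92), TTK (0.91) and DLGAP5 (0.91). With deviations taken within each series of 5 libraries, r was lower for 9 of the 10 members. It was then 0.78 for AURKA and CDK1, 0.73 for UBE2C, 0.69 for CCNB1, 0.52 for CCNA2, 0.44 for CDC20, 0.36 for PLK1, 0.34 for CCNB2, 0.28 for PLK4 and 0.20 for AURKB. The 8 other genes then lay between 0.73 for DLGAP5 and 0.88 for LBR. The genes of a library share its depth and GC content bias, which differ between libraries, and these values of r carry no test. LBR fell little with enzalutamide (log2 fold change -0.32, from 49.4 to 39.4 CPM), and ERCC6L more than any member (-1.45, from 24.1 to 8.46 CPM).

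The libraries held 15830745 to 25416052 counted reads, and a member had 109 to 7057 reads in a library. As a check of the treatment, FKBP5 (log2 fold change -4.99), KLK2 (-4.87) and TMPRSS2 (-3.56), genes induced by androgen, were lower with enzalutamide. Markers of luminal prostate epithelium were present in both groups. The keratins KRT8 (from 1580.8 to 349 CPM in the mean) and KRT18 (from 925 to 223 CPM) were lower with enzalutamide, while EPCAM was at 81.7 and 89.6 CPM, CDH1, which encodes E-cadherin, at 809 and 827 CPM and HOXB13 at 283 and 316 CPM with R1881 + DMSO and R1881 + enzalutamide. Of 11 markers of other cell types 4 had a row (VWF, COL1A1, ACTA2 and KRT14), and their summed level was 11.5 to 16.1 CPM with R1881 + DMSO and 14.2 to 19.95 CPM with R1881 + enzalutamide. These markers did not move together. The collagen gene COL1A1 rose from 6.03 to 9.96 CPM (log2 fold change 0.69, adjusted p = 9.33e-05 from limma) and VWF from 2.56 to 3.20 CPM (0.28, adjusted p = 0.00526), while the basal keratin KRT14 fell from 1.02 to 0.10 CPM (-1.35, adjusted p = 3.57e-08). The leukocyte marker PTPRC and the endothelial marker PECAM1 were among those without a row. The part of these marker levels in the results was not tested.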

How the data were processed

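Polyadenylated RNA of LNCaP cells was sequenced in 15 libraries (TruSeq Stranded mRNA kit, single-end reads), grouped by the treatment in the sample labels. The methods text gives the replicate numbers of the treatments the other way round. The authors demultiplexed with bcl2fastq 2.17, mapped with STAR to GRCh38 and counted reads with featureCounts. What they deposited is a normalized signal per gene, called CPM in the methods. The sources used here do not give the annotation, the strand setting, the gene filter or the scaling rule. Columns summed to 1053406 to 1078567 with R1881 + DMSO and to 985580 to 1008992 with R1881 + enzalutamide, so the sums of the treatments did not overlap. Within 0.01 reads, 100% of the values were whole multiples of 1 read. This let edgeR and DESeq2 be run on the recovered reads as alternatives. Low read numbers limit precision through counting error. In 55 same-treatment pairs chi-square per degree of freedom was at least 1.63, so no library was counted as a repeat.

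The test across genes was that of limma 3.58.1 with a mean-variance trend (R 4.3.3), on log2(CPM + 0.5) of the 17046 genes whose mean CPM reached 0.5. Treatment was its only term, p-values were adjusted after Benjamini-Hochberg, and the threshold was 0.05. On this scale the changes of low genes come out too small. Single members and pair ratios were compared with the two-sided exact permutation test of scipy 1.17.1. The limma step was tested on simulated data. Transcript GC content was known for 85.8% of genes. Alternatives were other pseudocounts, filters, scalings, edgeR 4.0.16, DESeq2 1.42.0, replicate blocks, each control series alone, a 2-fold limit and each library left out. Removal of the trend on GC content (a spline with 5 degrees of freedom) was chosen after seeing the data.

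The members and lists were chosen with earlier results of these data known. Named genes are the members, both genes of the 7 pairs, 3 androgen-induced controls, FOXM1, MYBL2, FBXO5 and PTTG1, the 3 lowest and 3 highest genes of each list, and the 8 genes most like the members. Genes overlapping a member, its pseudogenes and the cell type markers are named beside this rule. CCNA1 and AURKC, in the lists, were not analysed here. A marker of luminal epithelium is not reported here. With the start nearest to the gene's own start in place of the canonical transcript's, TTTAAA was found in 4 members in place of 3, and the other motif counts did not change.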

Additional observations from a re-analysis of the deposited data

Results flagged for a closer look

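Libraries far from the others of their group were sought in 36 groups of 5 or 10 libraries (the CPM of each member, the log2 ratio of each pair and the total reads), where chance gives about 1 in 20, or 1.8 groups. In 3 groups a library's gap to its nearest neighbour, divided by the range of the group, reached Dixon's critical value of 0.71 for 5 libraries, each time among the R1881 + enzalutamide libraries. PLK1 was at 20.1 CPM in library 81, where the other enzalutamide libraries lay between 16.5 and 17.6 CPM (gap over range 0.710, at the critical value), and all of them were below every R1881 + DMSO library. The log2 ratio of CCNB1 to CCNB2 was 1.52 in library 84, where the others lay between 1.71 and 1.77 (gap over range 0.776). The same library 84 held 25416052 reads, more than the others, at 21188661 to 22329140 (gap over range 0.730). Without library 84 the ratio of CCNB1 to CCNB2 differed between treatments by 0.13.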

How the results depend on the processing

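All 10 members were lower with enzalutamide under each alternative run other than the 2-fold limit, which left 2, beside 4.19% of all genes. Of the 98 related genes that limit left 14 lower and 0 higher, beside 714 and 556 of all 17046 genes. It left 0 members higher in control libraries 51 to 55 and also 0 of all genes, so this count says nothing particular about the members. With 1 library left out, 1 to 5 members were higher in libraries 51 to 55 than in 71 to 75, the value being 1 without library 51, 52 or 53 and 2 without library 74. Over all genes, the number higher in libraries 51 to 55 was 401, and it was 34 to 646 with 1 library left out, 34 without library 51, 37 without library 52, 51 without library 53 and 56 without library 74.

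The difference of CDK1 over CDK2 was 0.17 against libraries 51 to 55 and did not pass. That of CDC20 over FZR1 was -0.46 against libraries 71 to 75 and did not pass either. With as many libraries, each pair passed against the other control series (adjusted p = 0.0278 for each, exact permutation test). The differences there were 0.36 for CDK1 over CDK2 (libraries 71 to 75) and -0.66 for CDC20 over FZR1 (libraries 51 to 55). The difference of UBE2C over UBE2S was -0.36 and passed with the trend on GC content removed (adjusted p = 0.0326, exact permutation test), and it ranged from -0.46 to -0.23 with 1 library left out, passing without library 82. That of AURKA over AURKB ranged from 0.11 to 0.21, passing without library 83, and that of CCNB1 over CCNB2 from 0.07 to 0.13 (0.066 without library 83), passing without library 84. The cause was not tested.

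Libraries with the same number in their titles had correlated deviations of -0.11 to 0.13, with 1 of 5 pairs over 0.1. Those with the same last digit had -0.64 to 0.84, with 4 of 10 over 0.1. No common pairing was seen in these values, but they cannot exclude one, since the deviations also varied with GC content. With a replicate block on either number 10 members were lower, with a block on the last digit 4 members were higher in libraries 51 to 55, and 154 of all genes were. The block on the last digit moved no call on a pair. Related genes called lower were 68 with that block and 64 with the block on the title number. The latter block used only titles numbered up to 5, so controls with higher numbers were left out. Genes with few reads are limited by counting error.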
